A study of Pseudopodoces humilis with 2 samples.

Results

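Transcripts assembled with 30 or more exons were taken from liver and muscle of the ground tit (Pseudopodoces humilis), a songbird of the Tibetan plateau. They numbered 2273 of 81798 assembled transcripts, and merging their spans on the same strand over all assemblies gave 566 loci on 336 scaffolds. The liver assembly held 630 of them among 23614 transcripts (2.67%, Wilson 95% interval 2.47 to 2.88). Muscle assembly 2 held 851 among 31092 (2.74%, 2.56 to 2.92) and muscle assembly 3 held 792 among 27092 (2.92%, 2.73 to 3.13). The series holds 1 liver sample and 1 muscle sample of this species, sequenced to help annotate its genes. Both muscle assemblies belong to the 1 muscle sample, and the labels give no age, sex, number of birds or kind of muscle. Liver and muscle were not replicated, so differences between them are given without a test, and Wilson intervals cover counting error only.

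A spliced transcript is made of exons joined after the introns between them are cut out, and genes for very large proteins often have long rows of exons. Titin and nebulin, the giant proteins of the muscle sarcomere, and the collagens of the extracellular matrix are textbook examples in vertebrates. An exon whose length is a multiple of 3 can be skipped or repeated without shifting the reading frame of its neighbours, and rows of such exons are known from proteins built of repeated units. The files pair no locus with a gene name, so no locus below is assigned to any of these genes, and the tissue labels could not be checked against marker genes. An assembled transcript is the assembler's model. It joins exons that short reads link pairwise, it can break where reads are thin, and it can run through adjacent genes.

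Whole-number steps in the gene table placed the liver library at 46313678 reads. Its muscle column was taken as a mean of a pair of libraries. The liver-to-muscle ratios most common among genes then gave totals of 86472618 and 47542891 reads, held by 48 and 30 genes. Ratios were taken over the genes with reads in both tissues, out of 15394 listed. These muscle totals are inferred and were not checked otherwise. Which of the pair is behind which muscle assembly is not given. On these inferred totals muscle had more reads in all, and the part that read number has in the results was not tested.

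Members have more exons than transcripts of 3 to 29 exons by the rule that chose them, and they were also larger in bases. Their median exon number was 36 in liver, 37 in muscle assembly 2 and 37 in muscle assembly 3, with upper quartiles of 43, 45 and 45. The median spliced length was 6887 bases in liver, 7000 in muscle assembly 2 and 7188 in muscle assembly 3. For transcripts of 3 to 29 exons it was 2328, 2481 and 2387 bases in the same order. The shortest member, in muscle assembly 2, had 2453 spliced bases and the longest, in the same assembly, 68544. The median genomic span was 51665 bases in liver, 56847 in muscle assembly 2 and 60842.5 in muscle assembly 3, and the widest span was 619400 bases, in muscle assembly 3. Exons made up a median of 13.9%, 12.7% and 12.7% of that span, against 18.5%, 17.9% and 17.9% for transcripts of 3 to 29 exons. Members held 13.7%, 15.4% and 15.5% of all exon rows of their assemblies, shares that the rule itself raises. At the threshold, transcripts of 30 exons numbered 73, 86 and 101, with median spliced lengths of 5618, 5359 and 5508 bases. Transcripts of 29 exons numbered 64, 112 and 91, with medians of 5480, 5508 and 5333 bases.

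The highest exon numbers were found in muscle. Transcripts of 100 or more exons numbered 0 in liver, 7 in muscle assembly 2 and 5 in muscle assembly 3, and those of 70 or more numbered 25, 44 and 48. Across the 566 loci, exon number and spliced length of the transcript with most exons correlated at 0.694 (Pearson's r) and 0.485 (Spearman's rho). Exon number and genomic span correlated less, at 0.228 and 0.239. Both are descriptions across loci, which share libraries and depth.

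**Figure D1:**
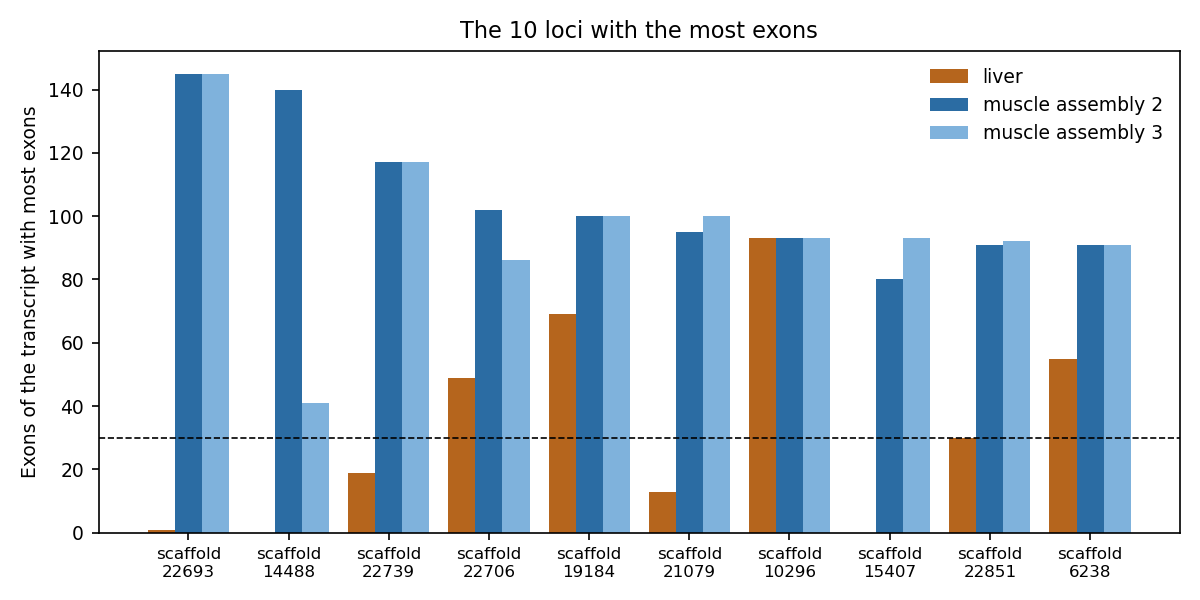
Exon number (y axis, a count) of the transcript with most exons at each of the 10 loci with the most exons (x axis, by scaffold), in liver, muscle assembly 2 and muscle assembly 3. The dashed line is at 30 exons. Liver reaches 93 exons on scaffold 10296 as both muscle assemblies do, and stays below 30 at 5 of the 10 loci.

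Among the 10 loci with the most exons, 5 stayed below 30 exons in liver. The first lies on the minus strand of scaffold 22693, from position 422780 to 537194 in the files' coordinates, whose build is not given. Liver held there a single-exon transcript with no strand, while each muscle assembly held 1 transcript of 145 exons. Exons made up 59.9% of this span, far above the median of 13% over the 566 loci, and 1 inner exon alone was 17106 bases long.

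The next locus, on the minus strand of scaffold 14488 from position 1001 to 118449, showed how far the muscle assemblies can differ. On that strand it held 0 transcripts in liver, 1 of 140 exons in muscle assembly 2 and 1 of 41 exons in muscle assembly 3. The shorter transcript covered 26.6% of the introns of the longer one, and nothing else in muscle assembly 3 shared an intron with it. The plus-strand locus on scaffold 22739, from 1539366 to 1715739, had 117 exons in both muscle assemblies and at most 19 in liver. Liver held 32.8% of its introns, spread over 4 separate pieces. On scaffold 21079, plus strand, from 879352 to 1127373, the highest numbers were 13 exons in liver, 95 in muscle assembly 2 and 100 in muscle assembly 3. The locus on scaffold 15407, plus strand, from 1068 to 70279, had 0 exons in liver, 80 in muscle assembly 2 and 93 in muscle assembly 3. The loci on scaffolds 14488, 15407 and 22706 begin within 2000 bases of the scaffold start. So did 14 of the 566 loci (2.47%), against 5.48% of 12493 loci of 3 to 29 exons. Whether such structures are cut by the end of the scaffold was not tested.

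The other 5 loci reached 30 exons in all 3 assemblies, and at most of them liver had fewer exons. Scaffold 10296, minus strand, from 408665 to 511335, had 93 exons in each assembly. Scaffold 22706, plus strand, from 1033 to 94108, had 49 in liver, 102 in muscle assembly 2 and 86 in muscle assembly 3. Scaffold 19184, minus strand, from 288046 to 429153, had 69 in liver and 100 in each muscle assembly. Scaffold 22851, plus strand, from 173024 to 212876, had 30 in liver and 91 and 92 in muscle assemblies 2 and 3. Scaffold 6238, plus strand, from 158976 to 308020, had 55 in liver and 91 in each muscle assembly. At these 4 loci liver nevertheless held between 74.4% and 97.0% of the introns of the longest structure, in 2 to 4 separate pieces.

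At 5 of the 566 loci the members of at least 1 assembly fell into separate, non-overlapping sets. At 4 of the 5, a transcript of muscle assembly 2 shared introns with both sets and so joined them. At the fifth, on scaffold 23084, no transcript did, and the sets were merged by overlap of spans alone. On scaffold 22706, liver had transcripts of 49 exons from position 26529 to 65544 and of 36 exons from 66253 to 94088. On scaffold 12566, minus strand, from 1665260 to 1805524, muscle assembly 2 held a transcript of 82 exons. It also held 1 of 44 exons, up to position 1720811, and 1 of 38 exons, from position 1722526. Liver and muscle assembly 3 had the same division, each with a highest exon number of 44. Whether such a pair is 1 gene or adjacent genes read as 1 was not tested, and the highest exon numbers should be read with this in mind.

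Nearly all loci that reached 30 exons in liver also did so in muscle (323 of 340), while 226 of the 549 that reached it in muscle did not in liver. Of 566 loci, 340 (60.1%, Wilson 95% interval 56.0 to 64.0) reached 30 exons in liver and 549 (97.0%, 95.2 to 98.1) in at least 1 muscle assembly. All 3 assemblies reached it at 295 loci (52.1%, 48.0 to 56.2). Liver and 1 muscle assembly reached it at 28 loci, of which 19 were with muscle assembly 2 and 9 with muscle assembly 3. Liver alone reached it at 17 loci (3.0%, 1.88 to 4.76), a count set against the union of both muscle assemblies. It was 37 without muscle assembly 2 and 26 without muscle assembly 3. Loci reached in muscle and not in liver likewise numbered 156 without muscle assembly 2 and 204 without muscle assembly 3. Muscle without liver reached it at 226 loci, of which 133 (23.5%, 20.2 to 27.2) did so in both muscle assemblies, 71 in assembly 2 alone and 22 in assembly 3 alone. The assemblies of the 1 muscle sample thus disagreed at 121 loci in all, 93 without and 28 with liver. Loci reached in both muscle assemblies and not in liver had a median of 38 exons in the longest structure, and loci reached in all 3 had 39. Their median spans were 76133 and 57967 bases.

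**Figure D2:**
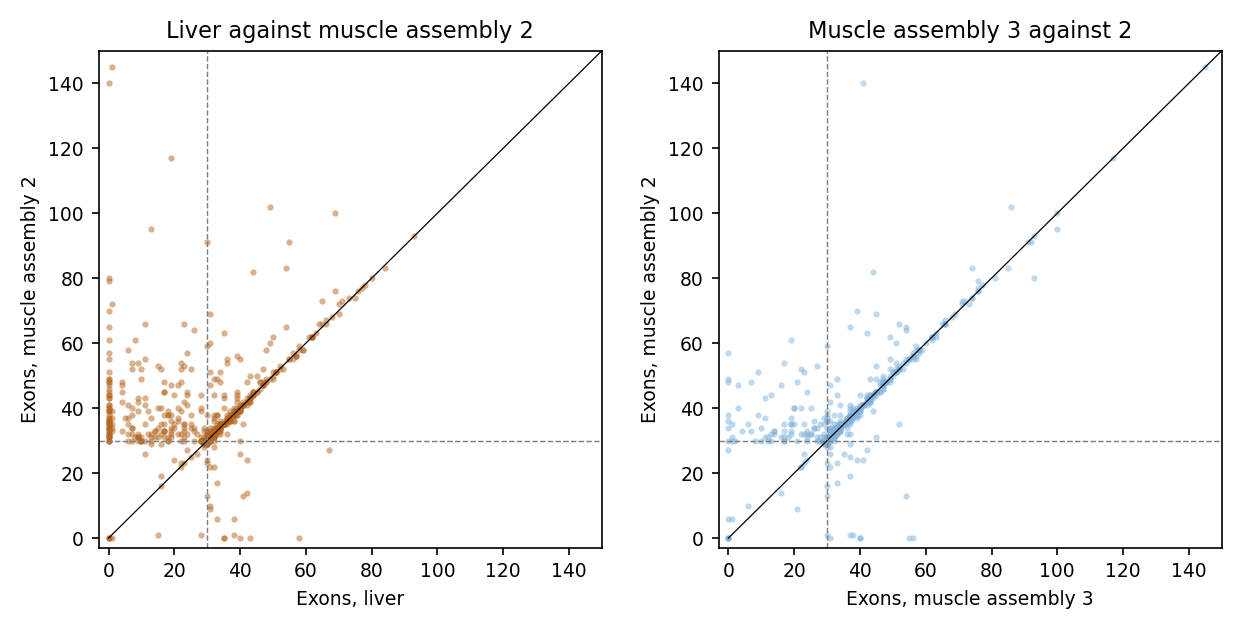
Highest exon number at each of the 566 loci, liver (x axis) against muscle assembly 2 (y axis) on the left, and muscle assembly 3 (x axis) against muscle assembly 2 (y axis) on the right, 1 point per locus. Dashed lines mark 30 exons and the solid line equal numbers. Many points lie on the line in both panels, and the left panel has more points above it than below.

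Where all 3 assemblies reached 30 exons, the structures were often of the same size. Liver and muscle assembly 2 had the same highest exon number at 148 of 295 loci, liver and muscle assembly 3 at 150, and the 2 muscle assemblies at 178. Liver had more exons than muscle assembly 2 at 41 loci and fewer at 106. A lead of 10 exons or more was found for liver at 1 of these loci and for muscle assembly 2 at 24. Between the muscle assemblies, assembly 2 led by 10 or more at 9 loci and assembly 3 at 1. The median difference was 0 in each of these pairs.

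At most of the 226 loci reached in muscle and not in liver, liver was shorter rather than empty. Liver held no transcript over the span on that strand at 57 of them (25.2%, Wilson 95% interval 20.01 to 31.3). At 8 more it shared no intron with the longest structure. At 31 loci the longest liver transcript that shared an intron had 2 to 9 exons, at 59 it had 10 to 19, and at 71 (31.4%, 25.7 to 37.7) it had 20 to 29. Liver held a median of 50.4% of the introns of the longest structure, with quartiles of 0% and 87.5%. At 47 loci it held 90% or more of them without reaching 30 exons in 1 transcript. At 103 of the 226 loci liver transcripts fell into 2 or more separate pieces, up to 6. Counting the introns of all liver transcripts at a locus together, 78 of these loci had 29 or more introns, the number in a transcript of 30 exons.

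By the median share of introns held, the loci that 1 muscle assembly reached alone were closer to complete in the other. Muscle assembly 3 held a median of 84.8% of the introns of the 71 structures that assembly 2 reached alone, and no transcript at 6 of them. Muscle assembly 2 held a median of 91.2% of the introns of the 22 structures that assembly 3 reached alone, and no transcript at 4. The other muscle assembly held none of the introns at 7 of the 71 loci and at 6 of the 22. Liver held none at 65 of the 226 loci reached in muscle and not in liver. At the 17 loci reached in liver alone, the median intron share was 51.3% in muscle assembly 2 and also 51.3% in muscle assembly 3, with no transcript at 4 and 6 of them. With 17 loci these shares are coarse.

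Over all 566 loci, 501 (88.5%) had at least 1 intron of the longest structure in liver, 553 (97.7%) in muscle assembly 2 and 548 (96.8%) in muscle assembly 3. Among 11883 loci whose transcripts had 3 to 29 exons and overlapped no member locus, the shares were 78.2%, 91.8% and 86.4%. A structure with more introns has more chances to share 1. All introns of the longest structure were in liver at 192 member loci (33.9%), in muscle assembly 2 at 417 (73.7%) and in muscle assembly 3 at 279 (49.3%). For loci of 3 to 29 exons these were 49.1%, 75.2% and 60.2%. The order of the assemblies was the same for both kinds of locus. These shares include structures compared with themselves. Where the longest structure came from another assembly, liver held at least 1 of its introns at 86.0% of 463 loci, muscle assembly 2 at 95.04% of 262 and muscle assembly 3 at 95.6% of 407. For loci of 3 to 29 exons these were 71.2%, 84.1% and 81.2%.

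Where an assembly stopped short of 30 exons, liver held more of the 3′ part of the structure. Introns of the longest structure were divided into 5 equal parts from 5′ to 3′, over the loci where an assembly shared introns but had fewer than 30 exons. Liver held 620 of 1262 introns (49.1%) in the 5′ part, 61.9%, 66.6% and 67.1% in those that follow, and 863 of 1125 (76.7%) in the 3′ part. From the 5′ to the 3′ part, muscle assembly 3 held 66.6%, 73.4%, 72.3%, 76.8% and 79.8%. Muscle assembly 2 held 75.2%, 86.9%, 83.7%, 75.9% and 80.4%, without a steady rise. The loci behind these values differ between the assemblies, and introns of 1 locus are not independent, so no test was made.

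**Figure D3:**
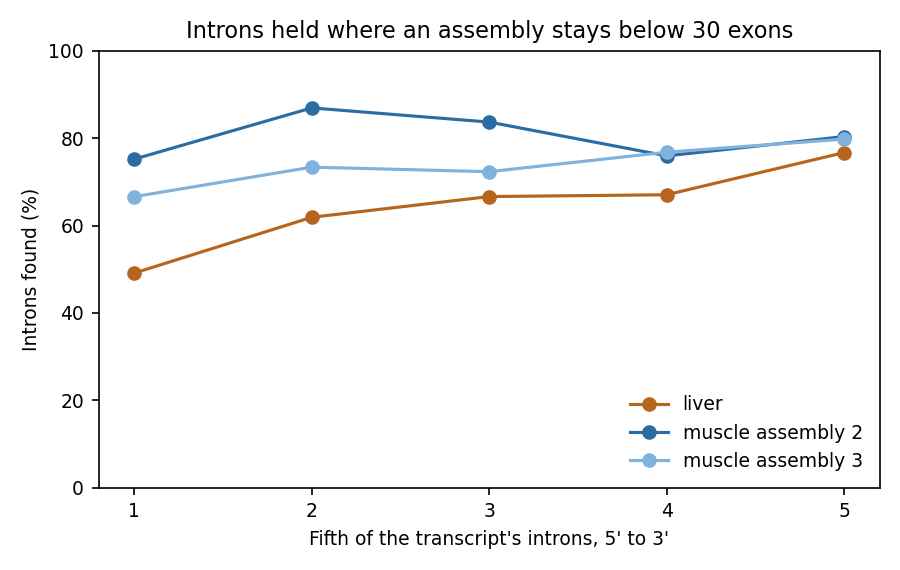
Share of introns of the longest structure found in an assembly (y axis, percent) for 5 equal parts of the structure from 5′ to 3′ (x axis), over loci where that assembly shared introns but stayed below 30 exons. Liver is at 49.1% in the 5′ part and 76.7% in the 3′ part, and lies below both muscle assemblies in all 5.

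The 3 loci with most exons among those reached in liver alone had 67, 43 and 42 exons. On scaffold 13870, minus strand, from 576299 to 649153, liver had a transcript of 67 exons, muscle assembly 2 had at most 27 in 4 pieces that held 87.9% of the introns, and muscle assembly 3 had none. On scaffold 14467, minus strand, from 203817 to 246104, liver had 3 members of up to 43 exons. Neither muscle assembly had a transcript there on that strand. On scaffold 22634, minus strand, from 1807091 to 1828187, liver had 42 exons, against 14 in muscle assembly 2 and 16 in muscle assembly 3. Of the 3, the locus on scaffold 14467 was the one that muscle lacked in both assemblies.

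Among loci reached in 1 muscle assembly alone, 2 of the 3 with most exons had no transcript on that strand in the other. On scaffold 21284, plus strand, from 3496037 to 3533866, muscle assembly 2 held 4 members of up to 57 exons. Liver and muscle assembly 3 held no transcript there on that strand. On scaffold 22763, plus strand, from 167937 to 308290, muscle assembly 3 held 3 members of up to 55 exons. Muscle assembly 2 held no transcript on that strand, and liver held a single-exon transcript. On scaffold 11057, plus strand, from 98692 to 313327, the numbers were 0 exons in liver, 61 in muscle assembly 2 and 19 in muscle assembly 3.

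Levels in the gene table could be set beside 6 loci, those on scaffolds with 1 listed gene. The table gives no positions, and the number in an ID such as evm.TU.scaffold11460.2 shows that other genes may lie there, so whether a listed gene is the one at the locus was not tested. The unit is RPKM, a read count divided by gene length and by library size. Gene evm.TU.scaffold15551.1, at the locus with 34 exons in each assembly, had a liver value of 195 RPKM and a muscle value of 8.01 RPKM, a difference of 4.44 in log2(RPKM + 1), liver minus muscle. Gene evm.TU.scaffold22818.1 had a liver value of 1.01 RPKM and a muscle value of 1.01 RPKM, at a locus with 29 exons in liver and 30 in each muscle assembly. Liver missed the threshold there by 1 exon, with a listed level like that of muscle. Gene evm.TU.scaffold8921.1 had a liver value of 0.0459 RPKM and a muscle value of 0.465 RPKM, with 11 exons in liver, 43 in muscle assembly 2 and 44 in muscle assembly 3. Gene evm.TU.scaffold23072.1 had a liver value of 0.00270 RPKM and a muscle value of 0.195 RPKM, with 1 exon in liver and 33 in each muscle assembly. The 61-exon structure on scaffold 11057 stood beside evm.TU.scaffold11057.1, with 0.00103 RPKM in liver, against 0.0293 RPKM in muscle. Gene evm.TU.scaffold11460.2 had a liver value of 0.619 RPKM and a muscle value of 0.376 RPKM, with 32 exons in liver and 33 in each muscle assembly.

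One of these 6 genes was at least 4-fold higher in liver on that scale, which 2.29% of all 15394 genes were, and 0 were 4-fold higher in muscle, which 4.49% of all genes were. The median difference over the 6 was -0.02, against -0.21 over all genes. The 3 loci with 1, 11 and no liver exons had muscle values above their liver values. The pseudocount of 1 RPKM hides differences between values this low.

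Liver held more than 1 member at most of its loci, and so did muscle assembly 3, which held a single one at 218 of 459 loci. Muscle assembly 2 held a single one at 267 of 518 loci. The median was 2 members per locus in liver and in muscle assembly 3, and 1 in muscle assembly 2. These counts cover members only, and the loci behind them differ between the assemblies. Liver held 1 member at 130 of its 340 loci, 2 at 142, 3 at 56 and 4 at 12, a mean of 1.85 per locus. The mean was 1.64 in muscle assembly 2 and 1.73 in muscle assembly 3, with at most 4 and 5 members at a locus. Over all 3 assemblies together the 2273 members held 1827 distinct intron chains, the full ordered sets of introns. Of these, 339 were found in 2 or more assemblies and 107 in all 3, at 104 loci. Most full-length structures were therefore seen in 1 assembly, although 67.2% of the 24587 distinct introns of members were found in transcripts of all 3. Liver transcripts of any size held 73.7% of these introns, muscle assembly 2 held 93.2% and muscle assembly 3 held 89.0%.

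The locus with the most assembled members was the one on scaffold 12566, with 12 over the 3 assemblies, described above for its division. The other 4 with the most had 11 each, on scaffolds 19184, 19568, 23084 and 21838. Scaffold 19568, minus strand, from 424481 to 596961, had 4 members in liver, 4 in muscle assembly 2 and 3 in muscle assembly 3, with 84, 83 and 85 exons at most. Scaffold 23084, plus strand, from 2385570 to 2530911, had 3, 3 and 5 members with up to 31, 60 and 51 exons, and it is the one merged by overlap alone: 1 of its members, of 30 exons in muscle assembly 3, shared no intron with the longest structure. Scaffold 21838, plus strand, from 699320 to 751414, had 4, 3 and 4 members with up to 44, 45 and 45 exons. Among 1258 pairs of members of the same locus and assembly, 413 had the same exon number, 1234 differed in an intron within the bases they share, and 24 shared no intron.

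Inner exons that were present in 1 member and cleanly skipped in another member of the same locus and assembly numbered 416. Their length was a multiple of 3 for 291 (69.95%, Wilson 95% interval 65.4 to 74.2), against 43.5% (42.9 to 44.2) of the other 22831 inner exons of members. The skipped exons had a median length of 99 bases and the others 127.

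Inner exons of members were more often a multiple of 3 in length than inner exons elsewhere. With all loci counted, the share climbed with exon number. Of 23247 distinct inner exons of members, 10226 (44.0%, Wilson 95% interval 43.4 to 44.6) were multiples of 3. Of 102434 inner exons found in transcripts of 3 to 29 exons and in no member, 38.5% were. This lead of 5.51 percentage points was 2.76 without the 27 loci of repeated exon length described further on, and 2.44 in the liver assembly alone. Lengths that leave a remainder of 1 made up 28.1% and those that leave 2 made up 27.9% of member exons. By exon number of the transcript the share was 38.6% for 3 to 9 exons, 38.6% for 10 to 19 and 40.3% for 20 to 29. It was 41.3% for 30 to 39, 46.0% for 40 to 49, 47.2% for 50 to 69 and 52.7% (50.7 to 54.7) for 70 or more. These classes include the 27 loci of repeated exon length, and the climb without those loci was not computed. An exon found in transcripts of different classes was counted in each. First exons of members were multiples of 3 in 34.4% (32.1 to 36.7) and last exons in 34.6% (32.2 to 37.1), close to 1 in 3. The exons of 1 locus are related, so these intervals are narrower than the spread between loci. Over loci the share had a median of 40% and quartiles of 32.3% and 50%, and 31 loci reached 75% or more. Locus by locus, exon number and this share correlated weakly, at 0.234 (Pearson's r) and 0.169 (Spearman's rho), given as a description.

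**Figure D4:**
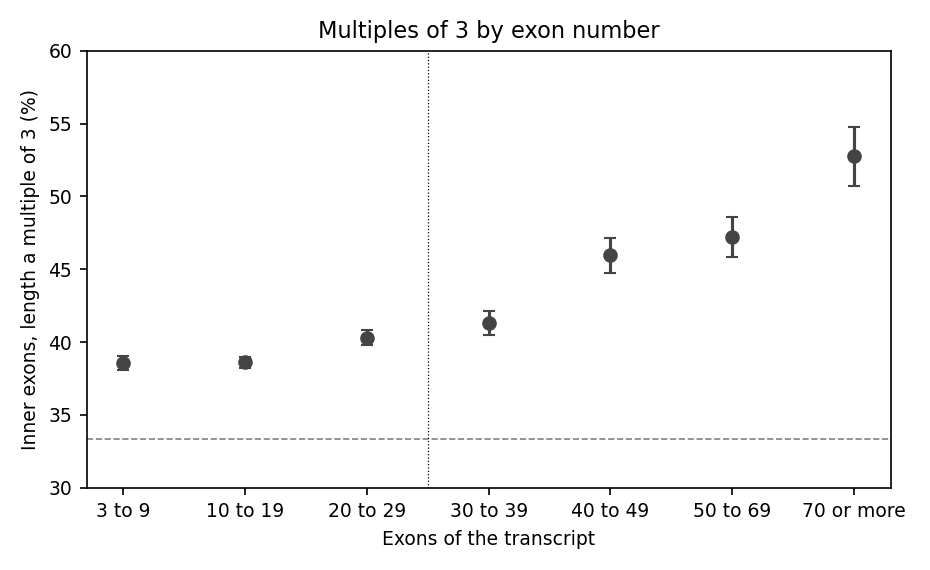
Share of distinct inner exons whose length is a multiple of 3 (y axis, percent, starting at 30) by exon number of the transcript (x axis), with Wilson 95% intervals. The dashed line is 1 in 3, and the dotted line separates transcripts below 30 exons. The share is 38.6% for 3 to 9 exons and 52.7% for 70 or more. Loci of repeated exon length are included, and an exon found in transcripts of different classes counts in each.

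With all loci counted, the share was highest at loci reached in both muscle assemblies and not in liver. The other kinds of locus lay closer together. For loci reached in both muscle assemblies and not in liver, 51.3% (50.003 to 52.6) of 5749 inner exons were multiples of 3, against 40.6% (39.8 to 41.5) of 12720 at loci reached in all 3. It was 44.4% (40.4 to 48.4) at loci reached in liver alone, 43.2% at those reached in liver and 1 muscle assembly and 44.5% at those reached in 1 muscle assembly alone. Much of the gap sat in loci with 1 repeated exon length. Leaving out loci whose longest structure holds 8 or more inner exons of the same length, the shares were 43.9% (42.5 to 45.4) for both muscle assemblies without liver and 40.003% (39.1 to 40.9) for all 3, and 40.9% for 1 muscle assembly alone. No repeated-length locus was among those reached in liver alone or in liver and 1 muscle assembly, which stayed at 44.4% and 43.2%. Loci of both muscle assemblies without liver were then no longer the highest kind. As medians over all loci, repeats included, the shares were 42.9% for both muscle assemblies without liver and 38.9% for all 3. Split by exon number, with repeated-length loci included, the gap was smallest where most loci lie. At 30 to 39 exons, the 146 loci that muscle and not liver reached had 41.7% and the 194 that liver reached 38.3%, with medians over loci of 39.3% and 37.5%. At 40 to 49 exons the shares were 50.8% at 48 loci and 42.4% at 75. At 50 or more they were 62.3% at 32 loci and 43.6% at 71, with medians over loci of 52.0% and 42.4%. Repeated-length loci such as those on scaffolds 14488 and 15407 are among the 32. The split without such loci was not computed, so the gap is not shown for large muscle structures in general.

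The 5 loci with the highest shares had no liver transcript on their strand. Scaffold 14132, minus strand, from 1330142 to 1556272, had 38 inner exons and all were multiples of 3, in a structure of 40 exons with 39 in muscle assembly 2. The 57-exon locus on scaffold 21284 had 55 of 55, and scaffold 1155, minus strand, from 891885 to 914390, had 32 of 32. The locus on scaffold 15407 had 89 of 91, with 87 in an unbroken row, and the 61-exon locus on scaffold 11057 had 57 of 59. The 2 largest structures also ranked high, with 113 of 143 on scaffold 22693 and 120 of 138 on scaffold 14488.

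At the low end, 4 of the 5 loci were reached in all 3 assemblies. Scaffold 485, minus strand, from 756872 to 841520, had 33 exons in every assembly and 2 multiples of 3 among 31 inner exons (6.45%). Scaffold 22342, plus strand, from 2476051 to 2572451, had 4 of 32. Scaffolds 22919, plus strand, from 350773 to 386102, and 15458, minus strand, from 2320786 to 2406523, had 5 of 37 each, and each had 39 exons in every assembly. Scaffold 14713, plus strand, from 158040 to 186696, reached in muscle assembly 2 alone, had 5 of 35.

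The length of 54 bases stood out among the pooled inner exons of members, mostly at 7 loci. Lengths of 45 and 36 bases also had higher shares in the pool, while longer multiples of 9 were mixed. A length of 54 was held by 258 inner exons of members (1.11%), against 0.474% of the inner exons in transcripts of 3 to 29 exons. Most of the 258 came from 7 loci described below, whose longest structures held 31, 29, 24, 22, 22, 21 and 14 of them. The share over the other loci was not computed, so the excess is not shown for members in general. Lengths of 45 bases made up 0.503% of member exons and 0.297% of the others, and lengths of 36 made up 0.361% and 0.198%. Going up from 54, the shares were 0.619% and 0.555% at 63 bases, 0.619% and 0.727% at 72, and 0.714% and 0.775% at 81. The most frequent length among members was 99 bases, at 1.13% and 0.839%. The loci led by this length, described below, held 15, 14, 14 and 8 such exons in their longest structures. The share without them was not computed either. By contrast 96 bases, the most frequent length among the others, made up 0.804% of member exons and 0.986% of the others. In vertebrates, exons of 54 bases and other multiples of 9 are known from the triple-helical part of fibrillar collagens, where each residue triplet takes 9 bases.

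**Figure D5:**
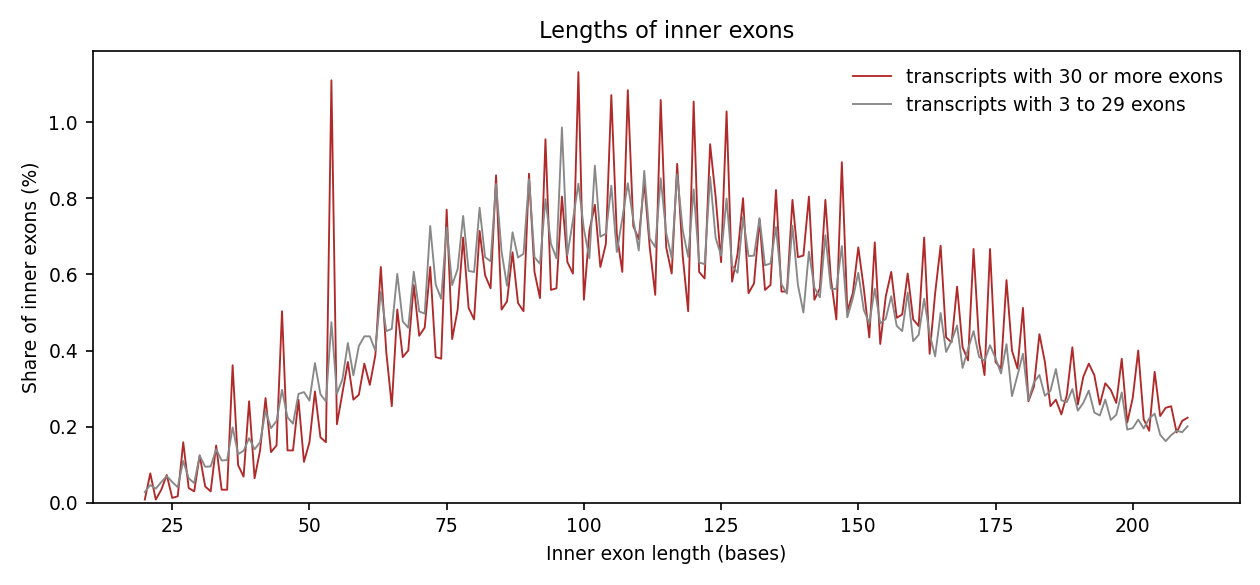
Share of distinct inner exons (y axis, percent) at each exon length from 20 to 210 bases (x axis), for transcripts with 30 or more exons and for transcripts with 3 to 29. Peaks recur every 3 bases in both, and the member line stands at 1.11% at 54 bases, against 0.474%.

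At 27 of the 566 loci 1 length was held by 8 or more inner exons of the longest structure. Of these, 22 were among the 226 loci that muscle and not liver reached (9.73%) and 5 among the 340 that liver reached (1.47%). A length of 54 led at 7 loci. On scaffold 11057 it was held by 31 of 59 inner exons, on scaffold 19438 by 21 of 43, on scaffold 17613 by 14 of 68 and on scaffold 22634, at the plus-strand locus from 764229 to 897128, by 29 of 64. On scaffold 23036, from 530987 to 567311, it was held by 22 of 48, and on scaffold 9979 by 22 of 49 and 24 of 52 at a pair of loci. Multiples of 9 bases made up 41 to 50 of the inner exons at each of these 7 loci. Liver reached 30 exons at 2 of the 7, with 43 exons on scaffold 23036 (50 and 49 in muscle assemblies 2 and 3) and 51 on scaffold 9979 (51 and 51).

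The pair on scaffold 9979 lies tail to tail, from 887769 to 936595 on the plus strand and from 944890 to 1039774 on the minus strand. The plus-strand locus had 51 exons in all 3 assemblies. The minus-strand locus had at most 22 exons in liver and 54 in each muscle assembly, although liver held 84.9% of its introns. Their inner exons share a row of 21 lengths in the same order, but the row holds only 5 different lengths, all multiples of 3. The match is not particular to the pair. The minus-strand locus shared longer rows, of 25 with scaffold 19438 and of 22 with scaffold 23036, each with 4 different lengths.

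Other lengths led elsewhere. A length of 105 bases led at 3 loci, all without a liver transcript on their strand. On scaffold 15407 it was held by 37 of 91 inner exons, with 108 held by 13 more and up to 9 exons of 105 in a row. The locus on scaffold 14488 had 28 inner exons of 279 bases, and that on scaffold 22693 had 17 of 300 and 16 of 303. The 57-exon locus on scaffold 21284 had 25 inner exons of 39 bases among 55, and none longer than 48. Scaffold 22763 had 21 of 75 bases among 53, with 9 in a row. A length of 99 led at 4 loci, with 15 of 47 inner exons on scaffold 17066, 14 of 44 on scaffold 6690, 14 of 42 on scaffold 12906 and 8 of 28 on scaffold 22342, at a locus from 3954557 to 4036433 apart from the low-share one. Liver reached 30 exons on scaffold 12906 (43 exons), had 29 at this second locus on scaffold 22342 and held none on the other pair.

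Some loci shared long rows of exon lengths with loci elsewhere. The longest structures of all 566 loci were compared in 159895 pairs for consecutive inner exons of the same lengths in the same order. The median pair shared a row of 1, and 97 pairs shared 8 or more exons, of which 84 pairs had at least 5 different lengths in the row. The longest was a row of 38 inner exons with 31 different lengths, 5441 bases in all. It was shared by scaffold 12377, plus strand, from 82905 to 137962, and scaffold 20431, minus strand, from 103260 to 214162. Another locus, on scaffold 22269, plus strand, from 1971268 to 2041099, shared 35 of these with each. All 3 loci reached 30 exons in every assembly, with 39, 40 and 41 exons in liver and 41 to 43 in the muscle assemblies.

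Pairs of loci alike in exon lengths could be alike in reaching 30 exons in liver or not, or could be split. Of the 84 pairs, 29 had both loci reaching 30 exons in liver, 24 had neither, and 31 had 1 of the 2. The pairs draw on 132 loci, and a locus can be in more than 1 pair. Over all 566 loci, 340 reached 30 exons in liver and 226 did not. How many like and split pairs those numbers alone would give was not computed, so all of these are given as counts only. Most of the pairs named next are split ones. A row of 23 different lengths was shared by scaffold 22009, minus strand, from 1333095 to 1401147, and scaffold 18915, plus strand, from 994781 to 1012948. The first had 36 exons in liver and in each muscle assembly, and the second had 11 in liver, 35 in muscle assembly 2 and 19 in muscle assembly 3. A row of 20 was shared by scaffold 21028, minus strand, from 501520 to 591140, and scaffold 14160, minus strand, from 123627 to 153611. The first had 45 exons in liver, 50 in muscle assembly 2 and 47 in muscle assembly 3, and the second 4, 47 and 47. The 117-exon locus on scaffold 22739, with 19 exons in liver, shared a row of 14 with the locus on scaffold 6238, with 55. The 100-exon loci on scaffolds 19184 and 21079, with 69 and 13 exons in liver, shared a row of 12. The low-share loci on scaffolds 15458 and 22919 also shared 12. How many rows of this length unrelated loci would share was not measured.

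Introns of members were shorter in the median than those elsewhere, and first introns of members were longer in the median than their other introns. The 24587 distinct introns of members had a median of 718 bases, with quartiles of 342 and 1506. The 125624 introns found in transcripts of 3 to 29 exons and in no member had a median of 899, with quartiles of 395 and 2217. Introns of 20000 bases or more made up 1.22% of the introns of members and 2.80% of the others. First introns of members had a median of 2110 bases and 12.6% of them had 20000 bases or more. Last introns had a median of 844, and introns that were neither 695. Introns of transcripts of 3 to 29 exons were not split by position. First introns make up more of the introns in transcripts with few exons, and the comparison of medians was not matched for this. On scaffold 22693 the median intron of the 145-exon structure was 117.5 bases, and on scaffold 22851 the median of the 92-exon structure was 87, the lowest of the 566 loci. The highest was 5034.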

How the data were processed

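RNA libraries of 1 liver and 1 muscle sample were made with Illumina's TruSeq RNA kit, per the labels' protocols. The submitters' processing notes list TopHat, and the assembly rows list Cufflinks. Versions, genome build and counting tool were not given in the sources used here. Deposited by the authors were RPKM per gene and, per assembly, transcripts with exons (rows called CDS) and a Cufflinks score. Per the files, the score reaches 1000, and it was used in 1 alternative. No reads, reference genome or sequence were used.

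Members are mRNA rows with 30 or more CDS rows. Loci are member spans sharing 1 base or more on 1 strand over all files. The longest structure is the member with most exons, then most spliced bases. Inner exons and introns were counted once per scaffold, strand and ends. The exon number of an assembly at a locus is the highest among its transcripts there on that strand. An assembly without a transcript at a locus has none on that strand and none without a strand, whatever lies on the opposite strand. The liver read total came from whole-number steps, within 1e-06, of the rows for reads not assigned to a gene. The muscle totals came from the most common liver-to-muscle ratios of gene RPKM, with the muscle column taken as a mean of a pair of libraries. RPKM differences are log2(liver + 1) minus log2(muscle + 1). The largest loci, 3 per pattern, 5 by members and 5 at each end of the multiple-of-3 share were named by rule. Repeated-length loci, shared rows, divided loci and the genes of the RPKM comparison were named outside it after their values were seen. Gene lists were not evaluated, since no gene names were given. The members, lists and tests were chosen with earlier results of these data known. Calculations used Python 3.11.15, numpy 2.4.6, scipy 1.17.1 and pandas 2.3.3, checked on simulated transcripts, and figures matplotlib 3.10.9.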

Additional observations from a re-analysis of the deposited data

How the results depend on the processing

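No paired analysis was possible because each tissue has 1 sample. Counts depend on the threshold by construction. With 25, 35 and 40 or more exons, transcripts numbered 1043, 370 and 228 in liver, 1460, 515 and 331 in muscle assembly 2, and 1321, 497 and 312 in muscle assembly 3. All loci then numbered 934, 348 and 226, those reached in liver 580, 197 and 120, in both tissues 556, 188 and 110, in all 3 assemblies 511, 176 and 105, and in both muscle assemblies without liver 200, 86 and 65. Loci reached in muscle and not liver numbered 354 and 106 at 25 and 40 exons, and those in 1 muscle assembly alone 154 and 41. Loci reached in liver and not muscle numbered 9 and 10 at 35 and 40 exons. The share reached in liver was 53.1% at 40 exons.

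The excess of muscle over liver loci was smaller when introns of all transcripts at a locus were pooled (29 or more introns). Then 148 loci were reached in muscle and not liver, 10 in liver and not muscle, 35 in 1 muscle assembly alone, and 73.9% in liver. Without muscle assembly 2, 37 loci were reached in liver and not muscle, and 68.7% in liver, and without muscle assembly 3, 26 in liver and not muscle. Joining exons under 10 bases apart could change no count. The shortest intron was 51 bases in members and 48 in the other transcripts of 3 to 29 exons. Merging on either strand, by 50% overlap or by shared introns, or keeping score 1000, left every locus count within 1.5 times.

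The multiple-of-3 share of 44.0% became 42.5%, 45.6% and 48.0% with 25, 35 and 40 exons, 42.9% with first and last exons, 41.1% for inner exons found in all 3 assemblies and 40.8% in liver alone. Without the 27 loci of repeated lengths, an alternative chosen after seeing the data, it was 41.2%. Its lead of 5.51 percentage points over transcripts of 3 to 29 exons became 4.01, 7.02 and 9.41 at those thresholds, 2.75 for exons in all 3 assemblies, 2.44 in liver alone and 2.76 without the 27 loci. With 1 transcript per locus the median spliced length was 7201 bases, against 7022 over all members. The median RPKM difference of -0.02 was -0.17 with a pseudocount of 0.1, and 2.22 over the 2 genes with 1 RPKM or more in a tissue.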
